A study of Homo sapiens with 8 samples.

Results

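The human mitochondrial genome carries 37 genes, and all of them are listed among the 60234 genes of this data set. They were taken as every gene whose symbol starts with MT-, which gave 13 mRNAs, 2 rRNAs and 22 tRNAs. Their reads were compared between 4 control libraries and 4 libraries with knockdown of G9a, an enzyme that methylates lysine 9 of histone H3 and is encoded by EHMT2, in the Rh41 cell line. Rh41 is an established human cell line from an alveolar rhabdomyosarcoma, a tumour with features of skeletal muscle, and all 8 libraries come from this line, which carries the PAX3-FOXO1 fusion. The sample labels call the knockdown group siG9a, while the series title speaks of shG9a, and the labels give neither the reagent, the time after knockdown nor what the control cells received. QuantSeq, which primes on poly(A), was used, a method meant to read transcript ends, so values are not divided by gene length.

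The mitochondrial genome is a small circle copied by its own polymerase. Both strands are transcribed as long precursors, tRNAs between the other genes mark most of the cuts that release the rRNAs and mRNAs, and most of the mRNAs then receive a short poly(A) tail. The mRNAs encode membrane subunits of respiratory complexes I, III and IV and of the ATP synthase, and the rRNAs form the core of the mitochondrial ribosome. Muscle cells depend on this system for oxidative ATP production.

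The transcript ends are shown because the library method reads from poly(A). These are the last 30 bases of 7 of the transcripts in GENCODE release 29, 5′ to 3′, with the bases of the stop codon in capitals. As annotated, 6 of the 13 mRNAs end in a partial stop codon (T or TA) that the poly(A) tail completes, and 7 end in a whole one. The annotated MT-ATP6 shares its last base with MT-CO3, and annotated ends need not be those of the mature mRNAs. The rRNA has no stop codon and no capitals.
MT-RNR1: aagtgtactggaaagtgcacttggacgaac
MT-ND1: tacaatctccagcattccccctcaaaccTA
MT-ND2: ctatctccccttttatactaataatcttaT
MT-ND4: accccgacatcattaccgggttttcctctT
MT-CO3: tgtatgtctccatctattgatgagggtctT
MT-ATP6: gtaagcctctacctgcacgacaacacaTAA
MT-CO1: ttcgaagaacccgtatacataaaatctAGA
Partial stops are found among the mRNAs called below in the paired fit (MT-ND1, MT-ND2 and MT-ND4) and among those not called (MT-CO3, MT-ND3 and MT-CYB). Whole stops are likewise found among those called (MT-CO1, MT-CO2, MT-ND4L and MT-ND5) and not called (MT-ATP8, MT-ATP6 and MT-ND6). Because poly(A) priming can also start inside a transcript, stretches of 6 or more A were counted in all 15 rRNAs and mRNAs. Of the 8 genes called below in the paired fit, 6 hold such a stretch (MT-RNR1, MT-ND1, MT-ND2, MT-CO1, MT-ND4 and MT-ND5), and of the 7 not called 2 do (MT-RNR2 and MT-ATP8). Whether reads start there was not tested.

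Libraries held 1458825 to 1938665 reads assigned to genes, recovered from CPM (the reads of a gene scaled to the library's total), so that 1 read was worth 0.516 to 0.685 CPM. EHMT2 was at 57.6, 68.1, 87.3 and 88.3 CPM in control replicates 1 to 4 and at 19.6, 35.1, 33.1 and 58.5 CPM in siG9a. It was lower in 4 of 4 replicate numbers, with a limma adjusted p of 0.191 in a fit by group alone (unpaired) and 0.000472 in a fit that also holds the replicate number as a block (paired). Its groups overlapped, since siG9a replicate 4 lay just above control replicate 1. Of the markers of the line, MYOD1 measured 95.3 and 128 CPM in the 2 libraries numbered 3 and 608 to 864 CPM in the other 6, so these 2 libraries stand apart and results are also given without them. DES, a muscle filament protein, was at 248, 232, 47.4 and 226 CPM in control replicates 1 to 4 and at 50.03, 40.55, 13.7 and 151 CPM in siG9a, lower in 4 of 4 numbers (limma adjusted p of 6.69e-06 paired and 0.2996 unpaired). FGFR4, a growth factor receptor, was also lower in 4 of 4 (0.0229 paired and 0.694 unpaired, limma adjusted p). Of the 6 line markers these 2 were called paired, where 6.52% of all genes were called lower. MYCN was higher in 4 of 4 numbers, as were 14.9% of all genes, and was not called (log2 change 0.65, limma adjusted p = 0.208 paired). MYOD1, MYOG and PAX3 were not called either, with log2 changes of −0.03, −0.65 and −0.08. Of the endothelial markers, CDH5 and KDR were at 0 in every library and VWF was at 1.22 to 2.08 CPM in control and 0 to 0.57 CPM in siG9a, and leukocyte markers summed to at most 6.85 CPM in any library. Fibroblast markers summed to 118 to 398 CPM in control and 52.5 to 318 CPM in siG9a, with DCN and LUM at no more than 1.21 CPM in any library and COL1A1 called lower paired (limma adjusted p = 0.0410). COL1A2, COL3A1 and PDGFRA were not called, with log2 changes of −0.64, −0.40 and 0.73. Epithelial markers summed to 10.3 to 75.6 CPM in control and 23.5 to 43.96 CPM in siG9a, and within them CDH1, at 4.25 to 16.1 CPM in control and 0.61 to 4.01 CPM in siG9a, was called lower paired (limma adjusted p = 0.0171). KRT8, KRT18 and KRT19 went the other way, with log2 changes of 0.37, 0.27 and 0.92, and were not called. The part of these markers in the mitochondrial result was not tested.

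The mitochondrial genes took a larger part of the reads in siG9a than in the control library of the same number in 4 of 4 cases. Their share in the controls, in replicate order, was 9.18%, 5.58%, 4.68% and 4.59%, and in siG9a it was 13.7%, 11.4%, 6.53% and 5.21%. Each share rested on 76176 to 266551 reads, and the widest 95% Wilson interval, that of siG9a replicate 1, ran from 13.7008% to 13.7978%, so counting error was far below the spread between libraries. The groups overlapped, since control replicate 1 was above siG9a replicates 3 and 4. The means were 6.01 ± 2.16% and 9.21 ± 4.02% (SD, n = 4 each), and the differences by number were 4.57, 5.79, 1.85 and 0.612 percentage points, with a mean of 3.20 ± 2.39 (SD, n = 4). Leaving out both libraries numbered 3 gave a mean difference of 3.66 points. Leaving out siG9a replicate 1 alone gave 1.69 points. A larger share cannot be told apart from less RNA of other genes, and in bulk RNA fewer cells and less RNA per cell cannot be told apart either.

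The rRNAs carried most of this difference. MT-RNR1 added 1.41 percentage points of the library, 44.1% of the whole difference, and MT-RNR2 added 1.05 points, or 32.7%. The 13 mRNAs together added 0.726 points (22.6%) and the 22 tRNAs 0.0192 points (0.598%). Among the mRNAs the largest parts were those of MT-ND4 with 0.200 points (6.23%) and MT-CO2 with 0.105 points (3.27%). MT-ATP6 and MT-CO3 were slightly lower in siG9a and took −0.00158 and −0.0164 points.

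The makeup of the difference was not alike in every replicate number. The rRNAs made up 81.7% of the difference in replicate 1 and 83.05% in replicate 2, but 55.1% in replicate 3 and 45.99% in replicate 4. The mRNAs were accordingly 16.1%, 16.7%, 44.3% and 62.99%. MT-RNR1 alone gave 42.1%, 49.95%, 29.01% and 48.5% of the difference in replicates 1 to 4. MT-RNR2 gave 39.5%, 33.1%, 26.05% and −2.51%, so in replicate 4 the rRNA part came from MT-RNR1. Without the libraries numbered 3, MT-RNR1 gave 46.6% and MT-RNR2 33.8%. Without siG9a replicate 1 alone, the part of MT-RNR1 was 0.929 points in place of 1.41 and that of MT-RNR2 was 0.362 points in place of 1.05.

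**Figure D1:**
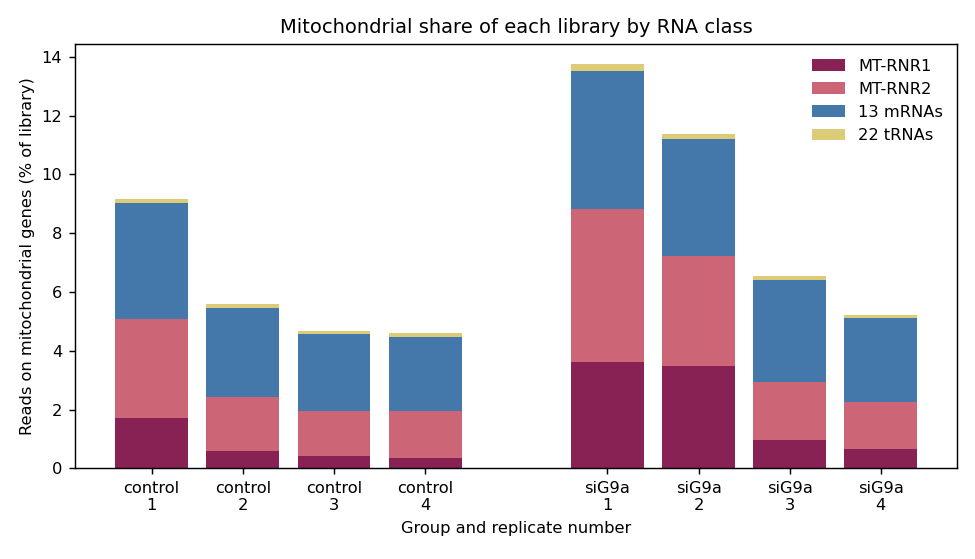
Reads on mitochondrial genes as a percent of each library's reads (y axis) for the 4 control and 4 siG9a libraries (x axis), stacked by MT-RNR1, MT-RNR2, the 13 mRNAs and the 22 tRNAs. The bars reach 4.59% to 9.18% in control and 5.21% to 13.7% in siG9a, and the rRNA parts differ most between siG9a replicates 1 and 2 and their controls.

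Each gene was then tested in a fit over the 15092 genes that averaged 1 CPM or more. The unpaired limma fit called none (0.0%) past an adjusted p of 0.05, and so 0 of the 15 mitochondrial mRNAs and rRNAs. An unadjusted p under 0.05 was found for 12.5% of all genes (6.08% higher), and for 4 mitochondrial genes, MT-RNR1, MT-ND1, MT-ND2 and the tRNA gene MT-TH, all higher in siG9a. In the paired fit 8 of the 15 were called higher and 0 lower, where limma called 4.86% of all genes higher and 6.52% lower. The 8 were MT-RNR1, MT-ND1, MT-ND2, MT-CO1, MT-CO2, MT-ND4L, MT-ND4 and MT-ND5. The 4 siG9a values of a gene lay wholly above its 4 control values for 3.88% of all genes and wholly below for 3.45% (7.32% in all), and neither held for any of the 15. A higher value in 4 of 4 replicate numbers was found for 14.9% of all genes and for 8 of the 15, MT-RNR1, MT-ND1, MT-ND2, MT-CO2, MT-ND4L, MT-ND4, MT-ND5 and MT-CYB. The median log2 change of the 13 mRNAs was 0.49, beside 0.015 for all genes tested.

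Paired calls were fewest without replicate 2. Over all 37 genes the paired limma fit called 11, the 8 above and 3 tRNAs, all higher (11.4% of all genes were called in either direction). Without the libraries numbered 2 it called 2 (MT-RNR1 and MT-ND1, with 1.68% of all genes called higher). Without those numbered 1 there were 6 (2.48% of all genes), MT-ND1, MT-ND2, MT-ND4, MT-ND4L, MT-ND5 and MT-RNR1. Without those numbered 3 there were 7 (2.56% of all genes), MT-CO1, MT-ND1, MT-ND2, MT-ND4L, MT-ND5, MT-RNR1 and the tRNA gene MT-TM. Without those numbered 4 there were 15 (3.88% of all genes), which added MT-RNR2 and the tRNA genes MT-TC, MT-TF and MT-TL1 to the 11. MT-RNR1 and MT-ND1 were called in all 4 of these fits. The siG9a library of replicate 1 also moved the size of several changes. Without it the log2 change was 0.39 for MT-CO1, 0.37 for MT-ND4L, 0.47 for MT-ND5 and 0.65 for the tRNA gene MT-TM, each over 1.5 times smaller than with all libraries. Of those not called, MT-RNR2 went from 0.51 to 0.21 and MT-CYB from 0.33 to 0.11. On the recovered reads, paired edgeR called the same 8 of the 15 and MT-RNR2 (4.75% of all genes higher), and paired DESeq2 called the same 8 (2.12% of all genes higher).

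Of the rRNAs, MT-RNR1 (ENSG00000211459), the RNA of the small subunit of the mitochondrial ribosome, showed the largest change of the 15. It measured 16988, 5752, 4188 and 3558 CPM in control replicates 1 to 4 and then 36256, 34666, 9543 and 6525 CPM in siG9a. The siG9a value was 2.13, 6.03, 2.28 and 1.83 times the control value of the same number, and siG9a replicates 3 and 4 lay below control replicate 1. The means were 7621 ± 6312 and 21747 ± 15896 CPM (SD, n = 4 each). The log2 change was 1.44 ± 0.61 (SE) in the unpaired fit (limma adjusted p = 0.363) and 1.44 ± 0.21 in the paired fit (limma adjusted p = 8.93e-05).

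MT-RNR2 (ENSG00000210082), the RNA of the large ribosomal subunit, had the highest level of the 37 genes. Its values were 33853, 18564, 15171 and 16036 CPM in control replicates 1 to 4 and then 51926, 37721, 19979.8 and 15882 CPM in siG9a. It was 1.53, 2.03 and 1.32 times the control in replicates 1 to 3 and 0.990 times in replicate 4. The means, 20906 ± 8751 and 31377 ± 16658 CPM (SD, n = 4 each), differed by 0.51 ± 0.20 (SE) in log2 in the paired fit, with a limma adjusted p of 0.11 paired and 0.681 unpaired. The ratio of MT-RNR1 to MT-RNR2 was higher in siG9a in every number, at 0.502, 0.310, 0.276 and 0.222 in control and 0.698, 0.919, 0.478 and 0.411 in siG9a. The mean ratio was 0.327 ± 0.122 in control and 0.626 ± 0.230 in siG9a (SD, n = 4 each), and the groups overlapped.

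**Figure D2:**
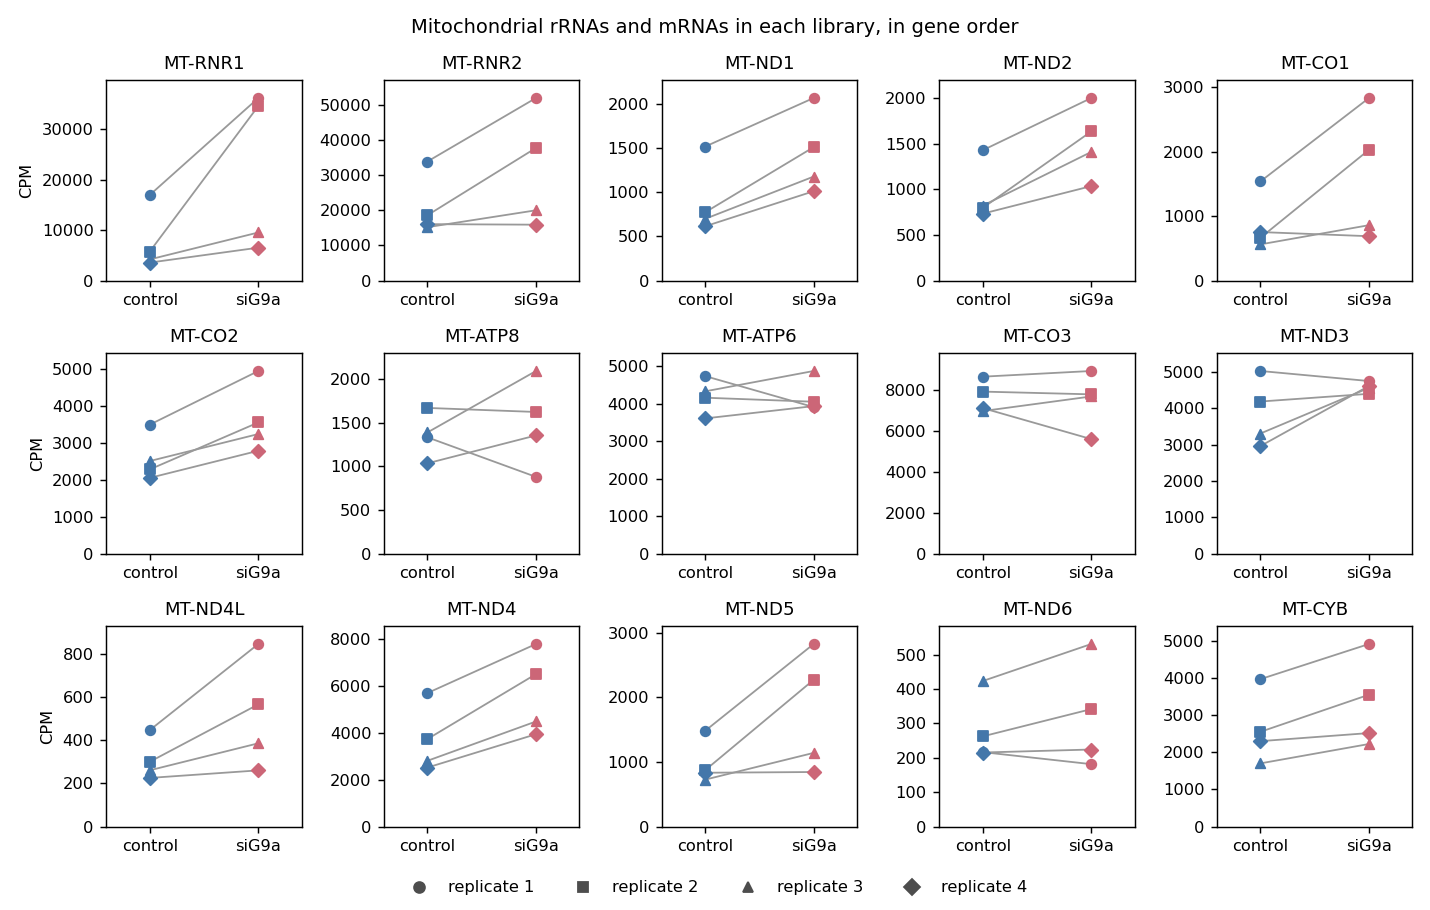
CPM (y axis, from 0, own scale per panel) of the 2 rRNAs and 13 mRNAs in control and siG9a (x axis), in gene order, with a line joining libraries of the same replicate number. MT-ND1, MT-ND2 and MT-ND4 rise along all 4 lines, MT-ATP6 and MT-CO3 have control means of 4205 and 7656 CPM and siG9a means of 4189 and 7492 CPM, and MT-RNR1 climbs from 5752 to 34666 CPM in replicate 2.

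Complex I, the NADH dehydrogenase that feeds electrons into the chain, has 7 subunits encoded here. In the paired fit 5 of them were called higher, beside 4.86% of all genes. MT-ND1 (ENSG00000198888), part of the quinone-binding end of the membrane arm, was at 1514, 770.5, 697 and 613 CPM in control replicates 1 to 4 and at 2063, 1508, 1175 and 1009 CPM in siG9a. Every siG9a library was above its control, at 1.36, 1.96, 1.69 and 1.65 times its value, while control replicate 1 stayed above siG9a replicates 2, 3 and 4. Its log2 change was 0.72 ± 0.31 (SE) unpaired (limma adjusted p = 0.364) and 0.72 ± 0.14 paired (limma adjusted p = 0.00113). MT-ND2 (ENSG00000198763), a membrane-arm subunit with a proton channel, was at 1431, 797, 822 and 734 CPM in control and at 2004, 1638, 1412 and 1037 CPM in siG9a. Only control replicate 1 reached into the siG9a range. The log2 change was 0.70 ± 0.14 (SE), with a limma adjusted p of 0.00181 paired and 0.322 unpaired.

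MT-ND4 (ENSG00000198886), a further proton-channel subunit, had the highest siG9a mean of the complex I mRNAs. It was at 5704, 3738, 2808 and 2519.9 CPM in control replicates 1 to 4 and at 7801, 6514, 4489.8 and 3946 CPM in siG9a, 1.37, 1.74, 1.60 and 1.57 times the control by number. MT-ND4L (ENSG00000212907), a small subunit read from the same transcript, was at 447, 300.2, 261 and 225 CPM in control and at 846, 567, 386 and 260.4 CPM in siG9a. Both had similar log2 changes, 0.64 ± 0.15 and 0.65 ± 0.15 (SE, paired), with limma adjusted p-values of 0.00638 and 0.00430 paired and 0.432 and 0.460 unpaired. Their calls were kept in 2 and 3 of the 4 paired fits that left out a number. The ratio of MT-ND4 to MT-ND4L was 11.8 ± 0.965 in control and 11.9 ± 2.45 in siG9a (SD, n = 4 each). These genes overlap by 7 bases, and how reads in the overlap were counted is not given in the sources used here.

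MT-ND5 (ENSG00000198786), the proton-channel subunit at the tip of the membrane arm, was at 1479, 870.1, 725 and 832 CPM in control replicates 1 to 4 and at 2824, 2269.7, 1139 and 843 CPM in siG9a. It was 1.91 and 2.61 times the control in replicates 1 and 2 but 1.01 times in replicate 4, and its log2 change of 0.75 ± 0.17 (SE) had a limma adjusted p of 0.00428 paired and 0.439 unpaired. Without the libraries numbered 2 its call was lost. MT-ND3 (ENSG00000198840), a small membrane subunit, was not called. It was at 5027, 4185, 3305 and 2959 CPM in control and at 4749.7, 4398, 4562 and 4614 CPM in siG9a, with an SD of 929 CPM among the controls and 145 CPM among the siG9a libraries (n = 4 each). MT-ND6 (ENSG00000198695), whose mRNA is the only one of the 13 copied from the other strand, was at 217, 262, 424 and 215 CPM in control and at 182, 342, 532 and 224 CPM in siG9a. Their paired log2 changes were 0.27 ± 0.16 and 0.13 ± 0.14 (SE), with limma adjusted p-values of 0.298 and 0.636.

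Complex III has a single subunit encoded here, MT-CYB (ENSG00000198727), cytochrome b. It was at 3963, 2547, 1698 and 2296 CPM in control replicates 1 to 4 and at 4909, 3545, 2219 and 2513 CPM in siG9a. All 4 siG9a libraries were above their controls, at 1.09 to 1.39 times, but the log2 change of 0.33 ± 0.15 (SE) had a limma adjusted p of 0.156 paired and 0.728 unpaired, past the threshold in neither fit.

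The 3 complex IV genes, which encode the catalytic core of cytochrome c oxidase, did not move together. MT-CO1 (ENSG00000198804) was at 1536, 662, 560.2 and 751 CPM in control replicates 1 to 4 and at 2830.3, 2028, 858 and 687 CPM in siG9a. It was higher in replicates 1 to 3, at up to 3.06 times the control in replicate 2, and lower in replicate 4. Its log2 change of 0.74 ± 0.18 (SE) had a limma adjusted p of 0.00877 paired and 0.529 unpaired, and the call was lost in 2 of the 4 fits that left out a number, those without 1 and without 2. MT-CO2 (ENSG00000198712) was at 3484, 2274, 2500.3 and 2045 CPM in control and at 4936, 3544, 3231 and 2779 CPM in siG9a. It was higher in every number, at 1.29 to 1.56 times the control, with a log2 change of 0.49 ± 0.15 (SE) and a limma adjusted p of 0.0288 paired and 0.462 unpaired. That call was kept in 1 of the 4 fits that left out a number.

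MT-CO3 (ENSG00000198938), the most abundant of the 13 mRNAs, was at 8643, 7913, 6961 and 7107 CPM in control replicates 1 to 4. In siG9a it was at 8921, 7779, 7677 and 5591 CPM, higher in 2 numbers and lower in 2. The means, 7656 ± 779.7 and 7492 ± 1387 CPM (SD, n = 4 each), differed by less than the spread between replicates, with a log2 change of −0.05 ± 0.16 (SE) and a limma adjusted p of 0.899 in the paired fit.

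The ATP synthase genes likewise did not pass the test. MT-ATP6 (ENSG00000198899), a subunit of the proton channel, was at 4733, 4156, 4325 and 3604 CPM in control replicates 1 to 4 and at 3906, 4049, 4869 and 3932 CPM in siG9a, with means of 4205 ± 468 and 4189 ± 458 CPM (SD, n = 4 each). MT-ATP8 (ENSG00000228253), a small subunit of the same enzyme, was at 1335, 1672, 1390.3 and 1036 CPM in control and at 880.0, 1626, 2096 and 1356 CPM in siG9a. Both were lower in replicates 1 and 2 and higher in replicates 3 and 4. In the paired fit their limma adjusted p-values were 0.989 and 0.80. These genes share 46 bases and MT-ATP6 shares 1 base with MT-CO3, so their reads cannot be fully told apart. The signs of the MT-ATP6, MT-ATP8 and MT-CO3 changes depended on the libraries used, and MT-ATP6 and MT-CO3 turned slightly positive (log2 0.046 and 0.0049) when libraries were scaled to reads outside the 37 genes.

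**Figure D3:**
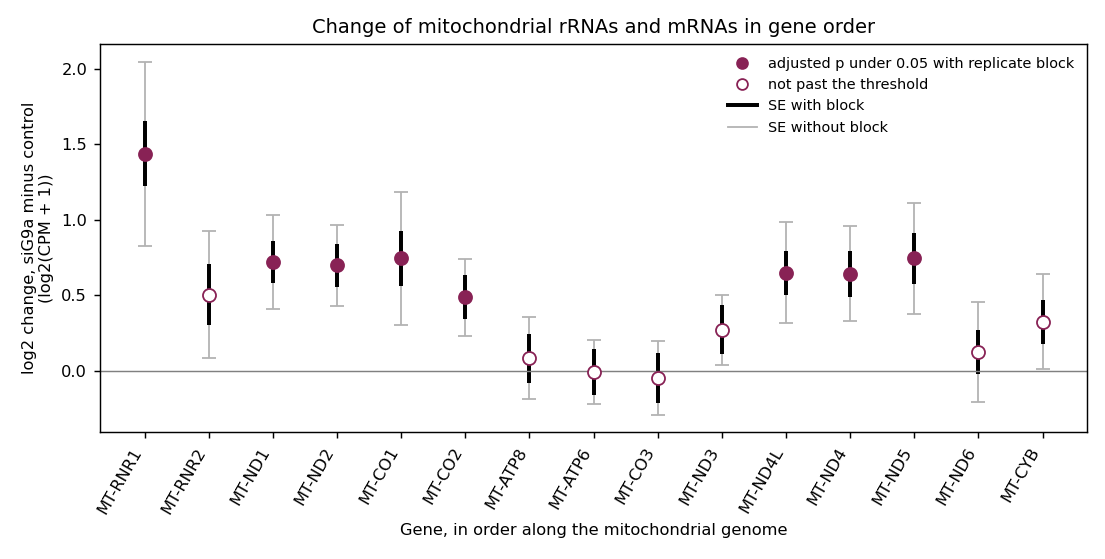
Log2 change of siG9a against control on the log2(CPM + 1) scale (y axis) for the 2 rRNAs and 13 mRNAs in order along the mitochondrial genome (x axis), with the SE with the replicate block (thick bars) and without it (thin bars). Filled points passed an adjusted p of 0.05 with the block. The lowest changes belong to the neighbours MT-ATP8, MT-ATP6 and MT-CO3, between −0.05 and 0.08, with higher values on either side.

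The calls are listed here in gene order, beside 4.86% of all genes called higher in the paired fit. From MT-RNR1 to MT-CO2, 5 of the 6 rRNAs and mRNAs were called in the paired fit, and of the next 4 (MT-ATP8, MT-ATP6, MT-CO3 and MT-ND3) limma called 0. MT-ND4L, MT-ND4 and MT-ND5 followed with 3 of 3 calls, and MT-ND6 and MT-CYB with 0 of 2. The bounds of these stretches follow the calls themselves, and the difference between the stretches was not tested. A call is also not a measure of size. MT-RNR2, not called, had a log2 change of 0.51, and MT-CO2, called, one of 0.49.

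The makeup of the mitochondrial reads themselves also shifted. MT-RNR1 took 18.5%, 10.3%, 8.94% and 7.74% of the reads on the 37 genes in the controls, in replicate order, and 26.4%, 30.5%, 14.6% and 12.5% in siG9a. Its share was higher in every number, and only control replicate 1 lay within the siG9a range. MT-RNR2 held a steadier part, 34.4 ± 1.99% in control and 33.01 ± 3.40% in siG9a (SD, n = 4 each). Because shares of a whole sum to 100%, other members had to take less: MT-CO3 went from 13.5 ± 2.76% to 8.96 ± 2.68% and MT-ATP6 from 7.42 ± 1.69% to 5.35 ± 2.502% (SD, n = 4 each), each lower in 4 of 4 numbers.

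Within the mRNAs alone the same genes lost ground. MT-CO3 held 21.9%, 26.2%, 26.3% and 28.5% of the reads on the 13 mRNAs in the controls, in replicate order, and 19.04%, 19.5%, 22.2% and 19.4% in siG9a. These ranges met only where control replicate 1 (21.9%) fell below siG9a replicate 3 (22.2%). MT-ND4 held 14.4%, 12.4%, 10.6% and 10.1% in control and 16.7%, 16.4%, 12.96% and 13.7% in siG9a. The share of the mRNA reads was higher in 4 of 4 numbers for MT-ND1, MT-ND2, MT-ND4 and MT-ND4L and lower in 4 of 4 for MT-CO3, MT-ATP6 and MT-ND6. MT-CYB kept nearly the same share, 8.52 ± 1.55% in control and 8.63 ± 1.68% in siG9a (SD, n = 4 each).

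**Figure D4:**
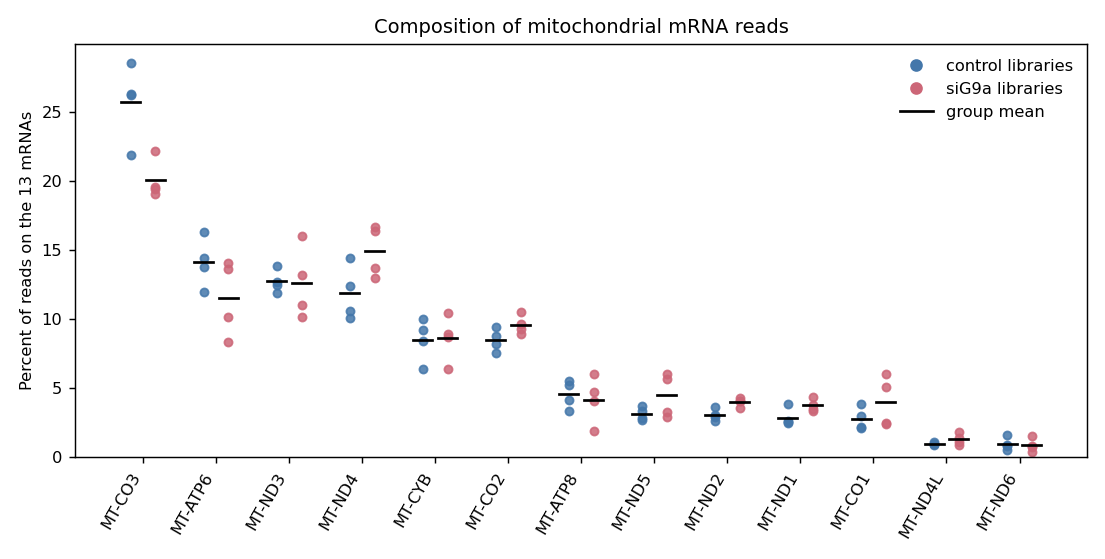
Percent of the reads on the 13 mitochondrial mRNAs (y axis) held by each mRNA (x axis, ordered by control mean) in the 4 control and 4 siG9a libraries (points), with group means as lines. MT-CO3 has a mean of 25.7% in control and 20.04% in siG9a, while MT-ND4 has 11.9% and 14.9%.

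The order of levels was compared on the CPM scale without division by length, as the method is meant to read transcript ends. Any reads that start inside a transcript would enter these levels too, which was not tested. In control, MT-RNR2 (20906 CPM) stood first, then MT-CO3 (7656), MT-RNR1 (7621), MT-ATP6 (4205), MT-ND3 (3869), MT-ND4 (3693), MT-CYB (2626), MT-CO2 (2576) and MT-ATP8 (1358). MT-CO3 and MT-RNR1 differed by far less than the MT-RNR1 SD of 6312 CPM. In control replicate 1 their order was reversed, at 8643 and 16988 CPM. MT-ATP6, MT-ND3 and MT-ND4 differed by less than the SDs of MT-ND3 and MT-ND4, 929 and 1438 CPM. MT-ND5, MT-ND2, MT-ND1 and MT-CO1 lay close together at 977, 946, 898 and 878 CPM, within their SDs of 325 to 446 CPM. MT-ND4L (308) and MT-ND6 (279.6) were last and also differed by less than their SDs of 97.3 and 98.5 CPM. In siG9a MT-RNR1 (21747 CPM) stood above MT-CO3 (7492). The siG9a mean of MT-ND4 (5688 ± 1791 CPM, SD, n = 4) differed from those of MT-ND3 (4581) and MT-ATP6 (4189) by less than its SD.

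The members differed in how much they varied among control libraries. The highest control value was 4.77 times the lowest for MT-RNR1, 2.74 times for MT-CO1 and 2.47 times for MT-ND1, but 1.31 times for MT-ATP6 and 1.24 times for MT-CO3. Control replicate 1 was the highest control for 13 of the 15 genes, all but MT-ATP8 and MT-ND6. Its log2 distance from the mean of the other controls was 1.95 for MT-RNR1, 1.23 for MT-CO1, 1.13 for MT-ND1 and 1.03 for MT-RNR2, against 0.24 for MT-ATP6 and MT-CO3. Genes that set control replicate 1 apart were thus in part those with the larger siG9a changes. With libraries kept separate on the axes, the distance of control replicate 1 from control replicate 4 and the change in replicates 2 and 3 had a Pearson r of 0.88 and a Spearman rho of 0.80 across the 15 genes. With control replicate 3 and the change in replicates 2 and 4 these were 0.73 and 0.71, and with control replicate 2 and the change in replicates 3 and 4 they were 0.50 and 0.37. The 15 genes are copied from the same genome, share libraries on each axis and are not independent, so these values describe the libraries only.

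The 22 tRNA genes, whose mature products are short and carry no poly(A) tail, gave few reads. Reads were found for 18 of them and 4 were at 0 in every library (MT-TW, MT-TA, MT-TN and MT-TK), and 15 had a mean of at least 1 CPM and were tested. Paired limma called 3 higher (MT-TM, MT-TH and MT-TE) and 0 lower, beside 4.86% and 6.52% of all genes. Paired edgeR also called these 3, with adjusted p-values of 0.00304, 0.0353 and 0.0332. Paired DESeq2 called none of them, with adjusted p-values of 0.284 for MT-TM and 0.142 for MT-TE, and gave none for MT-TH. MT-TM was at 23.3, 9.11, 11.7 and 19.7 CPM in control replicates 1 to 4 and at 149.6, 62.95, 14.3 and 14.9 CPM in siG9a, so its change rested on replicates 1 and 2 (limma adjusted p of 0.0178 paired and 0.439 unpaired). MT-TH was at 2.06, 0.61, 0.61 and 1.04 CPM in control, at or under 3 reads in each library. In siG9a it was at 11.9, 7.26, 1.71 and 1.72 CPM, or 23, 12, 3 and 3 reads. MT-TE was at 4.80, 5.47, 12.3 and 3.12 CPM in control and at 11.9, 19.97, 20.55 and 5.16 CPM in siG9a. MT-TH and MT-TE had limma adjusted p-values of 0.0446 and 0.0428 paired and 0.337 and 0.408 unpaired, and each was called in 1 of the 4 paired fits that left out a number.

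The tRNA genes with the most reads were not called in the paired limma fit of all libraries. MT-TP, at 374, 413, 418 and 490.2 CPM in control replicates 1 to 4 and at 855, 353, 384 and 214 CPM in siG9a, was high in siG9a replicate 1 alone. MT-TY was at 396, 436, 209.7 and 298 CPM in control and at 387, 282, 214 and 183 CPM in siG9a. In the paired fit limma gave them adjusted p-values of 0.853 and 0.164. MT-TL1, MT-TF and MT-TC had control means of 249, 164 and 64.7 CPM and siG9a means of 334, 199.8 and 102 CPM, and limma adjusted p-values in the paired fit of 0.135, 0.349 and 0.0571. MT-TC was higher in 4 of 4 numbers, as were 14.9% of all genes, and paired edgeR called it. MT-TL1 and MT-TF were higher in 3 numbers. The other 7 tested, MT-TV, MT-TI, MT-TQ, MT-TS1, MT-TD, MT-TS2 and MT-TT, had group means between 1.38 and 18.6 CPM, and MT-TD was lower in 4 of 4 numbers where 15.3% of all genes were. Where a tRNA gene lies beside or opposite an mRNA, its reads may be pieces of a longer transcript, which was not tested.

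Nuclear genes that run mitochondrial gene expression were read from a list of 56, of which 54 were tested. Limma called 0 of them unpaired, with 5 at an unadjusted p under 0.05. Paired, it called 3 higher and 2 lower, 5 of 54 beside 11.4% of all genes called in that fit, so the list held no more calls than genes at large. The median log2 change of the 54 was 0.09, beside 0.015 for all genes tested. TFAM, which packages mitochondrial DNA and opens its promoters, was at 81.6, 91.8, 260.1 and 90.3 CPM in control replicates 1 to 4 and at 110.9, 178, 364 and 195 CPM in siG9a. It was higher in every number, with a log2 change of 0.74 ± 0.16 (SE) and a limma adjusted p of 0.00242 paired and 0.488 unpaired, and it was highest in the libraries numbered 3. TFB1M, which methylates the small-subunit rRNA that MT-RNR1 encodes, was at 8.91, 7.90, 26.4 and 9.35 CPM in control and at 20.1, 25.4, 43.4 and 18.9 CPM in siG9a. Its log2 change was 1.08 ± 0.26 (SE), with a limma adjusted p of 0.00751 paired and 0.309 unpaired. Without the libraries numbered 3, the paired limma fit called 2 of the 54 higher and 0 lower. In that fit 2.56% of all genes were called higher, and 1078 of 15092 in either direction.

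The remaining calls were TRIT1, a tRNA-modifying enzyme, higher at 31.8 ± 6.51 against 18.7 ± 3.44 CPM, and TRMT5 and LIG3, a tRNA methyltransferase and a DNA ligase, lower at 55.8 ± 4.98 against 90.9 ± 36.8 and 50.55 ± 8.52 against 78.5 ± 26.4 CPM (SD, n = 4 each). In the paired fit limma gave these 3 adjusted p-values of 0.0426, 0.0292 and 0.0387. Each of the 3 calls was kept in 1 of the 4 paired fits that left out a number, with adjusted p-values up to 0.190, 0.181 and 0.174, and paired DESeq2 gave adjusted p-values of 0.150, 0.0666 and 0.0944. POLRMT, the mitochondrial RNA polymerase, averaged 18.3 ± 9.04 CPM in the controls against 12.1 ± 2.40 CPM after knockdown (SD, n = 4 each), with a limma adjusted p of 0.391 in the paired fit.

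A pair of RNAs that stay in the nucleus was read beside these results. MALAT1, a long nuclear RNA, was at 5983, 4332, 2459.7 and 4123 CPM in control replicates 1 to 4 and at 8931, 8548, 3881 and 6326 CPM in siG9a. NEAT1, the scaffold of nuclear paraspeckles, was at 304, 443, 553 and 426 CPM in control and at 711, 893, 482 and 509 CPM in siG9a. The limma adjusted p-values were 0.00374 and 0.0337 paired and 0.415 and 0.382 unpaired. Each call was kept in 2 of the 4 paired limma fits that left out a number, with adjusted p-values up to 0.0641 for MALAT1 and 0.283 for NEAT1. Paired DESeq2 gave adjusted p-values of 0.000145 and 0.0794. MALAT1 was higher in 4 of 4 numbers and NEAT1 in 3, and their part in the mitochondrial result was not tested.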

How the data were processed

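Total RNA of 8 Rh41 libraries was sequenced as single-end QuantSeq 3′ reads on a NextSeq500, per the labels' protocols. The submitters' processing notes name FastQC 0.11.8, Trim Galore, STAR 2.5.0a, HTSeq 0.8.0 and edgeR 3.28, and both GRCh38 and hg19, so no coordinates are given. Strand use in counting is not given in the sources used here. The authors deposited CPM to 2 decimals, and 100% of non-zero values were whole multiples of 1 read within 0.01 CPM, so whole reads were recovered.

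Groups and replicate numbers came from the sample titles. The series text calls the replicates biological and does not say whether they were separate cultures. Unpaired p-values thus measure the spread between these libraries, and paired ones the spread left after the replicate number is taken out. The test was limma 3.58.1 (R 4.3.3) on log2(CPM + 1), trend on, for genes averaging 1 CPM or more, Benjamini-Hochberg adjustment over all 15092, threshold 0.05. The fold change of low genes is understated by the pseudocount. This unpaired fit was planned as the main one, with the paired fit as an alternative. The sample titles do not state that libraries of the same number belong together across groups. The paired fit adds the replicate number (a block), used because libraries of the same number deviated together from their group means in these same data (correlation across genes 0.500, 0.104, 0.673 and 0.130 for replicates 1 to 4, each over 0.1). Only replicates 1 and 3 stand out in this check, since control 2 against siG9a 4 gave 0.144, above the values of replicates 2 and 4. edgeR 4.0.16 and DESeq2 1.42.0 were run on the recovered reads. Scripts were tested on simulated reads. All 15 rRNAs and mRNAs are named, tRNAs from a mean of 1 CPM and nuclear copies from 10 CPM. Of the nuclear genes of mitochondrial expression, those called in the paired fit are named, and POLRMT was chosen after its values were seen. Gene order, strand, overlaps and transcript ends are from GENCODE 29. Members and lists were chosen with earlier results of these data known. Wilson intervals cover counting error only.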

Additional observations from a re-analysis of the deposited data

Results flagged for a closer look

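Dixon's ratio, which sets the gap of an extreme library against the range of its 4-library group, was computed for the tested mitochondrial genes, their summed shares and the nuclear genes called. The 95% limit was passed in 8 of 82 such groups, beside about 4.10 by chance (1 in 20), and the genes are not independent. Control replicate 1 was high for MT-RNR1 (16988 CPM, others 3558 to 5752), for MT-ND2 (1431 CPM, others 734 to 822) and for the rRNA share (5.08% of the library, others 1.94% to 2.43%). In siG9a, MT-ATP6 was high in replicate 3 (4869 CPM, others 3906 to 4049), MT-TI was high in replicate 1 (31.5 CPM, others 4.84 to 9.13) and MT-TQ was low in replicate 2 (10.9 CPM, others 20.55 to 22.2). Control replicate 3 was high for TFAM (260.1 CPM, others 81.6 to 91.8) and TFB1M (26.4 CPM, others 7.90 to 9.35).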

How the results depend on the processing

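The replicate block moved the counts most, and in limma it left every log2 change as it was. Without it limma called 0 genes (1880 at an unadjusted p under 0.05), and with it 1717, of which 11 were mitochondrial and 5 from the nuclear list. With the block, edgeR called 1711, 13 and 5, and DESeq2 936, 8 and 2. Without it edgeR called 0 (1847 at an unadjusted p under 0.05), and DESeq2 292, of which 0 were mitochondrial. No filter on low values gave 18 calls. Block fits with other scaling, chosen after seeing the data, gave 1710, 11 and 5 (TMM), 1694, 10 and 5 (median ratio) and 1797, 12 and 4 (reads outside the 37 genes). Block fits without replicate 1, 2, 3 and 4 gave 951, 668, 1078 and 1393 calls, 6, 2, 7 and 15 mitochondrial ones and 4, 1, 2 and 3 from the list. Without the block, leaving out 1 library gave 0 to 300 calls, with 300 without control replicate 3 and 2 without siG9a replicate 4. Then 0 mitochondrial genes and 0 to 1 of the list were called. The median change of the 13 mRNAs ran from 0.36 to 0.64 without single libraries, and the difference in share from 1.69 to 4.54 points. Signs turned for 4 genes near 0. MT-ATP6 (−0.0046 in log2 as reported) was 0.046 with scaling to reads outside the 37 genes, with and without the block. It ran from −0.079 to 0.055 without single libraries, and was 0.086 and 0.0065 with the block and without replicate 1 or 2. MT-CO3 was 0.0049 under that scaling, with and without the block, ran from −0.14 to 0.088 without single libraries, and was 0.054 with the block and without replicate 4. MT-ATP8 ran from −0.10 to 0.31, and was −0.084 and −0.016 with the block and without replicate 3 or 4. MT-ND6 ran from −0.16 to 0.36. The cause was not tested. The other 11 kept their sign under the alternatives run, but not their size. Of these, leaving out siG9a replicate 1 moved MT-CO1, MT-ND4L, MT-ND5, MT-RNR2 and MT-CYB by over 1.5 times. MT-RNR2 was 0.76 without control replicate 1 and 0.78 without siG9a replicate 4. MT-CYB was 0.55, 0.14 and 0.49 without control replicates 1 and 3 and siG9a replicate 3, and MT-ND3 was 0.16 without control replicate 4.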

Other observations

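Copies of mitochondrial genes in the nuclear genome can share reads with the genes themselves, so their levels were read as well. Of 194 such copies listed, 34 had reads, and together they held 0.0142% to 0.0320% of a library, or 0.215 to 0.428 reads for every 100 reads on the 37 genes. Adding them to the mitochondrial share moved the difference between the groups from 3.20 to 3.21 percentage points. The 5 with a mean of at least 10 CPM were MTRNR2L12, MTND6P4, MTRNR2L2, MTRNR2L1 and MTATP6P1. MTRNR2L2, a copy of MT-RNR2, was at 43.2, 27.95, 32.6 and 10.4 CPM in control replicates 1 to 4 and at 55.2, 62.95, 37.7 and 43.01 CPM in siG9a, higher in every number, and its limma adjusted p was 0.0148 paired by replicate number and 0.356 unpaired. The other 4 had limma adjusted p-values of 0.152 or more paired. Reads of such copies and of the mitochondrial genes cannot be fully told apart, and how reads with several matches were counted is not given in the sources used here.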
